A study of Mus musculus with 8 samples.

Results

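The genes described here encode basic helix-loop-helix (bHLH) transcription factors and their Id inhibitors. They were selected by gene name from a list of 45 family members, of which 32 were found among the 20926 genes of the deposited table; the other 13 were not analysed here. The list was drawn up when the fold changes of these libraries were already known, so that every difference between genotypes below is a description of the listed genes, and their number is not evidence about the family.

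RNA was sequenced from molars of mice at postnatal day 3, after the epithelium had been removed and the mesenchyme collected. Control mice (n = 4) carried the Ezh2fl/fl alleles alone, and the other group (n = 4) carried Osr2KI-Cre;Ezh2fl/fl (*Osr2-Cre;Ezh2fl/fl* below). Floxed *Ezh2* is thus shared by both groups, which differ in the Osr2KI-Cre allele. No group carried that allele without floxed *Ezh2*, so its own effect cannot be told apart from loss of *Ezh2*. Recombination is driven from the *Osr2* locus, so it does not reach every cell type of the molar, and any enamel epithelium left in a sample would keep its *Ezh2*. The labels give the strain as C57BL/6 while the study's methods speak of a mixed background, and mice of either sex were used. Ezh2 is the enzyme of Polycomb repressive complex 2, which places the repressive mark H3K27me3, and the comparison addresses which genes change when it is lost from this tissue.

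Proteins of the bHLH family bind DNA as dimers through a stretch of basic residues, at short motifs called E-boxes (CANNTG). Broadly expressed E proteins pair with tissue-restricted partners such as Twist, Hand and the neurogenic factors, Id proteins lack the basic stretch and hold E proteins away from DNA, and Hes and Hey proteins act as repressors downstream of Notch receptors. In the craniofacial mesenchyme Twist and Hand factors are known for patterning the jaw and for restraining bone differentiation.

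Values are the authors' normalized values, which carry no factor for gene length. Estimated depth ran from 48.3 to 68.8 M reads per library, and a single read was worth a value of 0.0129 to 0.0190. Fold changes are differences in mean log2(value + 1), *Osr2-Cre;Ezh2fl/fl* minus control, tested with limma in those 14854 genes that reached a value of 1 in 4 or more libraries and adjusted over all of them (Benjamini-Hochberg). On this scale the change of a weakly expressed gene comes out too small. SE stands for standard error, and values by library are listed from replicate 1 to 4. The labels do not say that each library came from a separate mouse, so p-values measure the spread between these libraries. *Ezh2* itself was 55.0, 38.3, 39.6 and 39.0 in control and 35.2, 30.1, 23.2 and 36.0 in *Osr2-Cre;Ezh2fl/fl* libraries, so that the groups did not overlap (p = 0.0286 by a two-sided exact permutation test, which cannot go lower with 4 against 4). Its log2 fold change of -0.46 (SE 0.16) had an adjusted p of 0.235, and it was -0.19 with array weights (adjusted p = 0.135) and -0.64 with the enamel transcripts below as a covariate (adjusted p = 0.0274). All 16 dental mesenchyme markers passed the filter, 2 rose and 0 fell (1.56% and 0.512% of all genes tested did), and 5 were higher and 1 lower at an unadjusted p under 0.05 (8.27% and 4.87% of all genes tested), with a median log2 fold change of -0.04. Their groups were apart in 4 of 16 markers, all higher (5.55% of all genes in the table). Their summed values, to which *Col1a1* and *Col1a2* gave the most (means of 7654 and 4238 in control), were by contrast lower in every *Osr2-Cre;Ezh2fl/fl* library (12772 to 14984) than in any control library (15161 to 18246). The LIM homeobox gene *Lhx8* went from 9.87 ± 1.34 to 23.6 ± 4.28 (log2 fold change 1.17, SE 0.14, limma adjusted p = 0.00509, and 0.0424 with the replicate block), and the paired-related homeobox gene *Prrx2* from 26.9 ± 1.61 to 37.8 ± 3.69 (log2 fold change 0.47, SE 0.09, limma adjusted p = 0.0265, 0.122 with the block, and up to 0.115 with a library left out). Enamel transcripts of the epithelium remained in all libraries at very different levels. The mean log2(value + 1) of *Amelx*, *Ambn* and *Enam* was 7.37, 9.37, 12.08 and 13.02 in control and 8.07, 7.31, 11.47 and 7.10 in *Osr2-Cre;Ezh2fl/fl* libraries.

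Promoter sequences were compared for the members with higher values in every *Osr2-Cre;Ezh2fl/fl* library, *Hand2*, *Nhlh2*, *Twist1* and *Twist2*; *Tcf24* had no entry in the table of promoters. The sequences are those of RefSeq on GRCm38.p6, on the plus strand, and end at the last base before the gene as annotated by GENCODE, which leaves 250 bases for each gene but 181 for *Nhlh2*. They lie at chr8:57320733-57320982, chr3:102009895-102010075, chr12:33957421-33957670 and chr1:91801211-91801460 in the order printed. Capitals mark each E-box, CANNTG, which reads the same on both strands.
Hand2: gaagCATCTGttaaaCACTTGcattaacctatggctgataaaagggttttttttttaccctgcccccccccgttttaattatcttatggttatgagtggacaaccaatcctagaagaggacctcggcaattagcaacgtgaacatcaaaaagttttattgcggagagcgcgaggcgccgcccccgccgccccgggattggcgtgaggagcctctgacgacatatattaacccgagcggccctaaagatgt
Nhlh2: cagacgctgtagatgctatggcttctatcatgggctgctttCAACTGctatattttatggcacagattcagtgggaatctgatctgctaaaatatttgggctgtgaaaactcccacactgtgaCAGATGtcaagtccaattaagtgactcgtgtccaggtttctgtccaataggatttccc
Twist1: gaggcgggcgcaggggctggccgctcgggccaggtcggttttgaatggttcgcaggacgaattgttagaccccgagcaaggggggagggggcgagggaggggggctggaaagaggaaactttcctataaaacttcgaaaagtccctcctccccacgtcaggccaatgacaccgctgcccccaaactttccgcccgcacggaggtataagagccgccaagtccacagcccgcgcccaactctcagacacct
Twist2: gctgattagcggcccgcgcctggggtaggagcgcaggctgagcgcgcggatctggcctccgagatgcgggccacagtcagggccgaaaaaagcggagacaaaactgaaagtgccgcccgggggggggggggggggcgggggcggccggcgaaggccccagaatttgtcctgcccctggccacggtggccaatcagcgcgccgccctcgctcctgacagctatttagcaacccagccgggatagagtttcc
*Hand2* and *Nhlh2* each had 2 E-boxes in these windows, and *Twist1* and *Twist2* had 0. Of all 32851 promoter windows of 250 bases in RefSeq, 66.2% held at least 1 such motif and 31.8% held at least 2. CpG dinucleotides, which are dense in the promoters that Polycomb complexes are known to occupy, differed widely among the 4 genes. The 250 bases before the RefSeq start, which for *Nhlh2* lies inside the gene as annotated by GENCODE so that its window takes in the first bases of that gene, held 23 CpG in *Twist2*, 18 in *Twist1* and 15 in *Hand2*, against 2 in *Nhlh2* and a median of 6 over all windows. The window of *Nhlh2* had more CpG than 18.8% of all windows, and that of *Twist2* more than 86.7%. Over the 20 members with a promoter entry (24 windows), the median was 16.5 CpG.

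Before any comparison of genotypes, the levels of the family were ordered in control molars per kilobase of the longest coding transcript. Id inhibitors led the order. *Id3* had 210 ± 26.4 per kilobase, *Id1* 100.1 ± 13.7 and *Id2* 66.7 ± 4.41, and *Id4* followed at 30.0 ± 3.34 (SD, n = 4 each). *Hey1*, a Notch effector, came next after *Id1* with 84.6 ± 17.1, and the gap to *Id1* was smaller than the SD of *Hey1*. The E proteins *Tcf3*, *Tcf12* and *Tcf4* had 51.3 ± 0.636, 26.3 ± 0.405 and 22.4 ± 1.10. *Tcf3* and *Tcf12* varied least among the control libraries of all 32 members, with coefficients of variation of 1.24% and 1.54%. *Hes1* (26.5 ± 2.20) and *Tcf12* were neighbours that did not differ beyond their spread. The summed level of the 4 Id genes was 407 ± 41.8 per kilobase in control and 397 ± 55.5 in *Osr2-Cre;Ezh2fl/fl* molars, and that of the 3 E proteins was 99.9 ± 1.29 and 98.4 ± 1.57. At the other end, *Tcf24* ranked 28th, *Hand2* 29th and *Nhlh2* 30th of 32 in control molars. Taking the length of all annotated exons instead kept the first 7 places and moved *Tcf12* from place 8 to 11 and *Tcf4* from 9 to 14, because their annotated exons add up to 15529 and 27382 bases against coding transcripts of 6299 and 8577 bases.

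**Figure D1:**
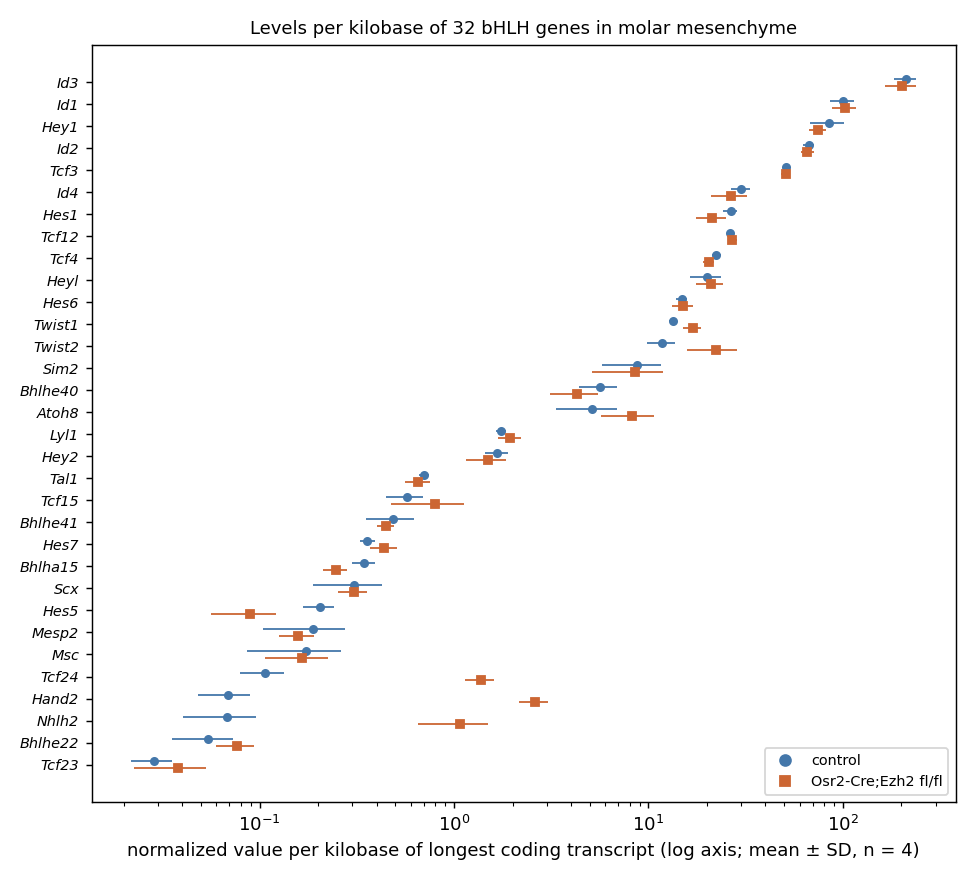
Normalized value per kilobase of the longest coding transcript (log axis) for the 32 bHLH genes, ordered by their mean in control molars; circles are control, squares *Osr2-Cre;Ezh2fl/fl*, and bars show the SD of 4 libraries. *Id3* leads with 210 in control, and *Hand2*, *Tcf24* and *Nhlh2* lie near the bottom of the control order and at 2.60, 1.38 and 1.08 in *Osr2-Cre;Ezh2fl/fl* molars.

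Of the 32 members, 24 passed the filter on low values. Of these, 3 rose in *Osr2-Cre;Ezh2fl/fl* molars at an adjusted p under 0.05, *Hand2*, *Tcf24* and *Nhlh2*, where 1.56% of all genes tested rose. These 3 genes had values under 1 in every control library and passed the filter only through the *Osr2-Cre;Ezh2fl/fl* group, so they could not have passed without a difference. No member fell by limma, where 0.512% of all genes did, nor by voom on estimated reads without a filter. With all 32 members tested and no filter the counts were again 3 and 0 (1.22% and 0.339% of all genes), and likewise with the replicate number as a block (0.431% and 0.0606%). At an unadjusted p under 0.05, 6 members were higher and 2 lower (8.27% and 4.87% of all genes tested). Groups that did not overlap were found in 5 of the 32 members with *Osr2-Cre;Ezh2fl/fl* above and in 2 with it below, against 5.55% and 2.65% of all 20926 genes. Among the 24 tested, these were 5 and 1, against 5.76% and 2.77% of genes tested. The median log2 fold change of the 24 members was -0.02, beside 0.01 over all genes tested. Since the 4 libraries of a genotype are bulk tissue, a change in the number of cells that express a gene cannot be told apart from a change in RNA per cell.

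**Figure D2:**
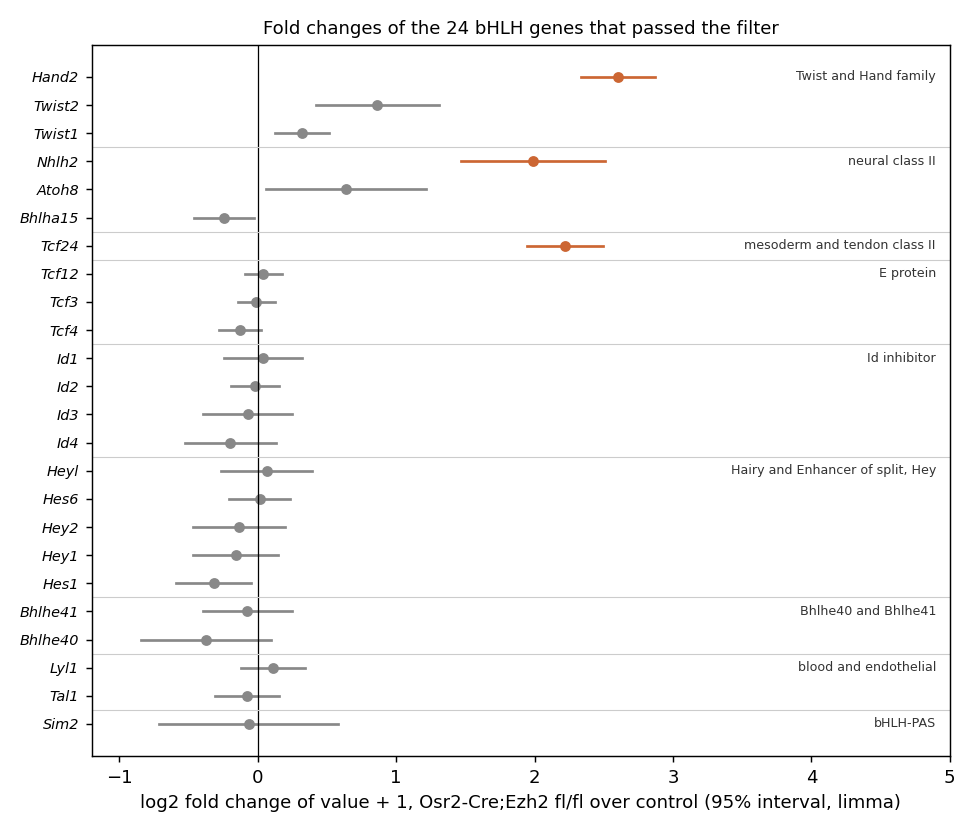
Log2 fold change of value + 1 between *Osr2-Cre;Ezh2fl/fl* and control molars for the 24 members that passed the filter, grouped by role; lines are 95% intervals from limma and colour marks an adjusted p under 0.05. The coloured genes are *Hand2* (2.60), *Tcf24* (2.22) and *Nhlh2* (1.99), and the intervals of all 4 Id genes and all 3 E proteins include 0.

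*Hand2*, a regulator of limb, heart and lower jaw patterning, is annotated at chr8:57320983-57324633 (plus strand, GRCm38, mm10) and overlaps *Hand2os1* on the opposite strand. The controls had values of 0.143, 0.188, 0.103 and 0.214, and *Osr2-Cre;Ezh2fl/fl* libraries had 6.50, 5.87, 4.81 and 7.25. The lowest *Osr2-Cre;Ezh2fl/fl* value, in library 3, was far above the highest control value, in library 4. The group means gave a ratio of 37.7. By limma the log2 fold change was 2.60 (SE 0.12, adjusted p = 2.91e-05). On the per-kilobase scale it went from 0.0689 ± 0.0208 to 2.60 ± 0.439 (SD, n = 4 each), which is above *Lyl1* and below *Bhlhe40* in the same molars. Its relative *Hand1* was not analysed here.

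*Tcf24*, at chr1:9960163-9967932 (minus strand), overlaps *E330040D14Rik* on the opposite strand. Its values were 0.347, 0.590, 0.481 and 0.367 in control and 4.62, 5.64, 5.78 and 7.05 in *Osr2-Cre;Ezh2fl/fl* libraries. All 4 *Osr2-Cre;Ezh2fl/fl* libraries stood together, with 243 to 546 estimated reads against 19 to 43 in control. Its mean was 12.9 times as high in *Osr2-Cre;Ezh2fl/fl* (5.77 ± 0.997) as in control molars (0.447 ± 0.112; SD, n = 4 each). With 1 library removed at a time the log2 fold change stayed between 2.13 and 2.30, and the limma adjusted p reached 0.00110 at most; with all 8 it was 2.22 (SE 0.12, adjusted p = 9.13e-05).

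*Nhlh2*, known from hypothalamic and other developing neurons, is annotated at chr3:102010076-102015492 (plus strand) with no annotated gene overlapping it. The controls had values of 0.417, 0.255, 0.155 and 0.245 (8 to 23 estimated reads), and *Osr2-Cre;Ezh2fl/fl* libraries had 1.95, 5.78, 4.20 and 5.07 (102 to 392 estimated reads). The groups were apart, but *Osr2-Cre;Ezh2fl/fl* library 1 had less than the other 3 of its group. The ratio of means was 15.9, and the log2 fold change of 1.99 (SE 0.23, adjusted p = 0.00385) ranged from 1.84 to 2.24 with each library left out. In the 5 libraries lowest in enamel transcripts, a choice made after seeing the data that keeps 2 control and 3 *Osr2-Cre;Ezh2fl/fl* libraries, it was 1.89 with an adjusted p of 0.213. In the same 5 libraries *Hand2* and *Tcf24* had adjusted p-values of 0.0117 and 0.0497. Of all 14854 genes tested, limma called 8 higher and 0 lower in these libraries.

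Other neural members and neuronal markers were looked at beside *Nhlh2*. *Bhlhe22* was at or under 20 estimated reads in all 8 libraries, with means of 0.181 ± 0.0620 and 0.256 ± 0.0571 (SD, n = 4 each). Of the 11 neuronal markers in the table, 6 passed the filter. By limma 0 were called in either direction (1.56% of all genes tested rose and 0.512% fell). At an unadjusted p under 0.05, 0 were higher or lower as well (8.27% and 4.87%). The groups were apart in 1 of the 11 markers, which was higher (5.55% of all genes in the table). The 11 markers had summed values of 97.2 to 157 in control and 98.6 to 118 in *Osr2-Cre;Ezh2fl/fl* libraries, which overlap.

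**Figure D3:**
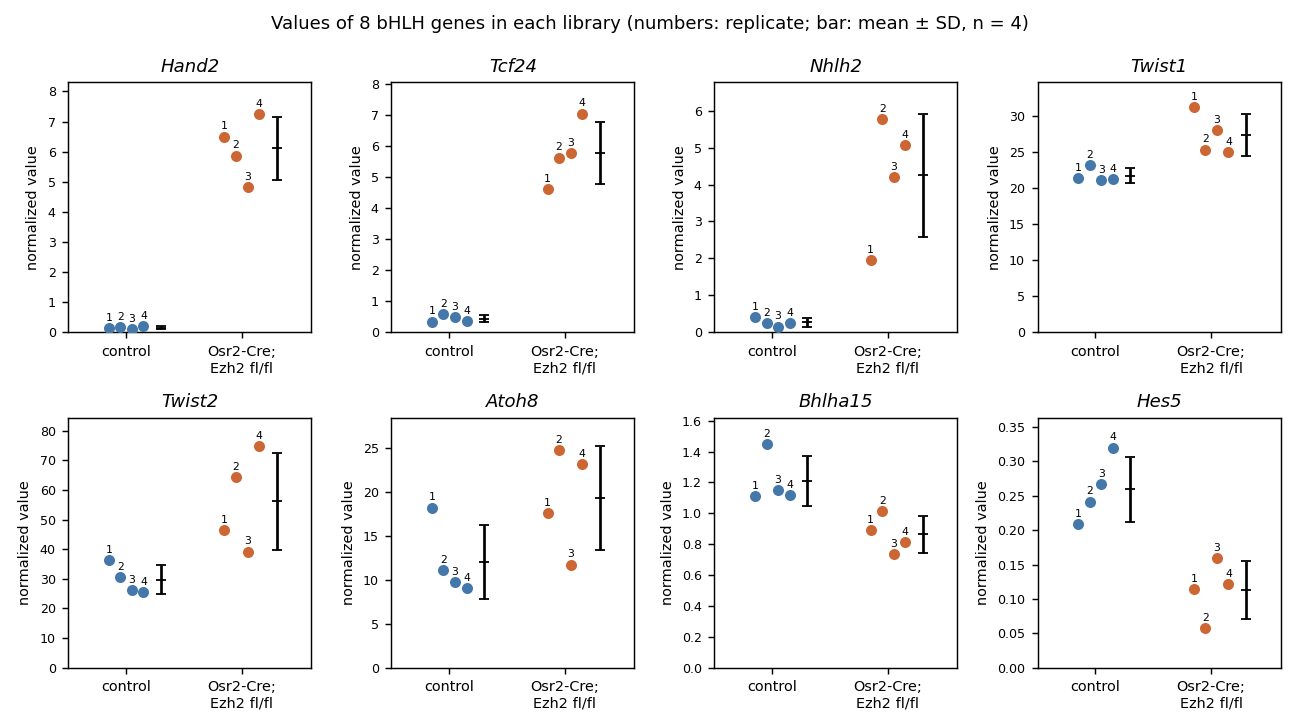
Normalized value in each library for 8 bHLH genes; points are libraries numbered by replicate, and bars give the mean ± SD of 4 libraries. *Hand2*, *Tcf24*, *Nhlh2*, *Twist1* and *Twist2* were higher in every *Osr2-Cre;Ezh2fl/fl* library than in any control library, *Bhlha15* and *Hes5* were lower in every one, and the groups overlapped for *Atoh8*.

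*Twist1* and *Twist2*, paralogs expressed in cranial and dermal mesenchyme, were apart between the groups but did not pass the adjusted threshold. *Twist1* was 21.4, 23.3, 21.2 and 21.2 in control and 31.3, 25.4, 28.1 and 25.02 in *Osr2-Cre;Ezh2fl/fl* libraries. Its log2 fold change was 0.32 (SE 0.09, adjusted p = 0.118). *Twist2* was 36.3, 30.7, 26.3 and 25.6 in control and 46.3, 64.3, 39.2 and 74.8 in *Osr2-Cre;Ezh2fl/fl* libraries. Its log2 fold change was 0.86 (SE 0.20, adjusted p = 0.0650), and 0.137 was the adjusted p with the replicate block. With each library left out the fold change ranged from 0.71 to 1.02 and the adjusted p from 0.0343 to 0.206, under 0.05 only without *Osr2-Cre;Ezh2fl/fl* library 3. At 29.7 ± 4.94 and 56.1 ± 16.3 (SD, n = 4 each), the difference in *Twist2* value was larger than that of any of the 3 genes called, while its ratio of means was 1.89. *Twist2*, at chr1:91801461-91848028 (plus strand), overlaps *Gm29100* on the opposite strand and *Gm29101* on the same strand. *Gm29100*, named after its values were seen, was 2.54 ± 0.386 in control and 4.32 ± 0.586 in *Osr2-Cre;Ezh2fl/fl* molars (log2 fold change 0.59, SE 0.12, adjusted p = 0.0388). Its adjusted p was 0.163 with the replicate block, 0.0536 without the filter, 0.0806 with the enamel covariate, 0.563 in the 5 libraries lowest in enamel transcripts and up to 0.154 with a library left out. Whether the counting used strand is not given in the sources used here.

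In both genotypes the library highest in enamel transcripts had the lowest value for 8 of the 24 members tested (*Twist2*, *Atoh8*, *Sim2*, *Tcf3*, *Id1*, *Id3*, *Heyl* and *Lyl1*), beside 1996 of all 14854 genes tested (13.4%). *Twist2*, *Atoh8* and *Sim2* are shown here, chosen after their values were seen. Control libraries 3 and 4, the highest of their group in enamel transcripts, had the lowest *Twist2* values of the controls, and *Osr2-Cre;Ezh2fl/fl* library 3 had the lowest of its group. *Atoh8*, a distant relative of the Atonal factors, behaved alike. It was 18.2, 11.1, 9.78 and 9.08 in control and 17.6, 24.7, 11.7 and 23.1 in *Osr2-Cre;Ezh2fl/fl* libraries, with overlapping groups and a log2 fold change of 0.64 (SE 0.26, adjusted p = 0.321). With the enamel transcripts as a covariate its log2 fold change was 0.29 (adjusted p = 0.348) and that of *Twist2* was 0.62 (adjusted p = 0.0511), while that of *Twist1* was 0.33 (adjusted p = 0.150). *Sim2*, which pairs its bHLH domain with a PAS domain, was 52.1, 32.6, 28.5 and 26.3 in control and 33.8, 30.6, 19.4 and 52.2 in *Osr2-Cre;Ezh2fl/fl* libraries. Its lowest value of each genotype was again in the library highest in enamel transcripts, and its log2 fold change was -0.07 (95% interval -0.72 to 0.58). With the enamel covariate that of *Sim2* was -0.44 (adjusted p = 0.278). Array weights, under which 14.6% of all genes tested were called higher and 12.6% lower, gave *Twist2* 1.30 (adjusted p = 0.000124), *Atoh8* 1.00 (adjusted p = 0.00113) and *Twist1* 0.19 (adjusted p = 0.0230). With the same weights *Sim2* had 0.61 (adjusted p = 0.0385), in the opposite direction to its value without them. All 13 epithelial and ameloblast markers passed the filter and 0 were called, while 1 was higher and 5 were lower at an unadjusted p under 0.05 (8.27% and 4.87% of all genes tested). Their log2 fold changes ran from -2.97 to 0.38 with a median of -0.66, and they had summed values of 2459 to 32389 in control and 2414 to 13680 in *Osr2-Cre;Ezh2fl/fl* libraries. In the 5 libraries lowest in enamel transcripts the log2 fold change of *Twist2* was 0.84 (adjusted p = 0.304) and that of *Atoh8* 0.57 (adjusted p = 0.712).

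**Figure D4:**
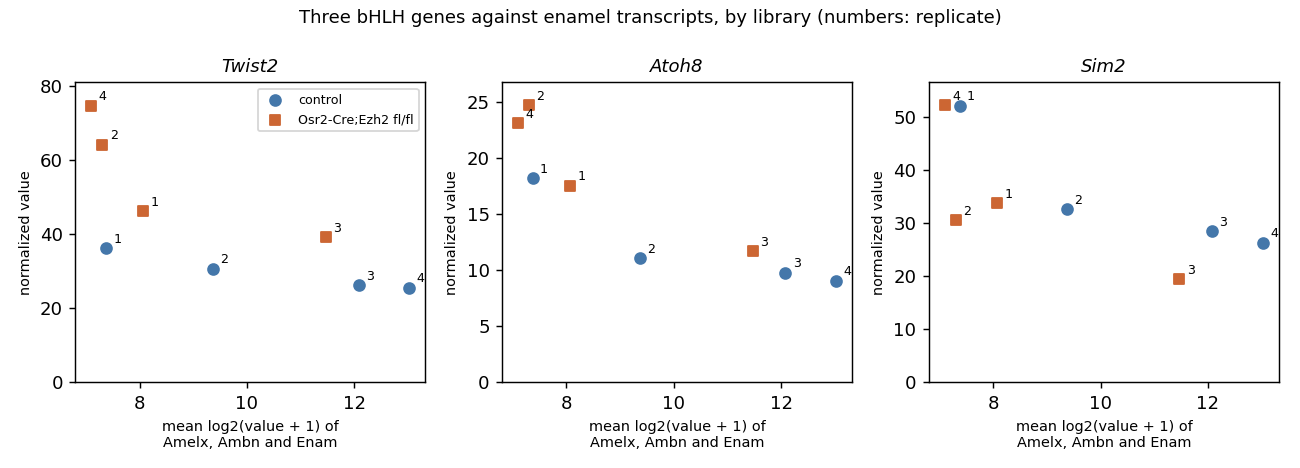
Normalized value of *Twist2*, *Atoh8* and *Sim2* in each library against the mean log2(value + 1) of the enamel transcripts *Amelx*, *Ambn* and *Enam*; circles are control, squares *Osr2-Cre;Ezh2fl/fl*, numbered by replicate. In both genotypes the library highest in enamel transcripts, at 13.02 and 11.47, had the lowest value of its group for each of the 3 genes, as it did for 8 of the 24 members tested and for 13.4% of all genes tested.

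The E proteins, common dimer partners of factors such as Twist and Hand, were near the same level in both genotypes. *Tcf3* was 151 ± 1.88 in control and 150.0 ± 7.83 in *Osr2-Cre;Ezh2fl/fl* molars, *Tcf12* 165 ± 2.55 and 170 ± 8.71, and *Tcf4* 192 ± 9.44 and 176 ± 11.4 (SD, n = 4 each). Their log2 fold changes lay between -0.13 for *Tcf4* and 0.04 for *Tcf12*, with adjusted p between 0.499 and 0.968. The 95% intervals of the 3 genes together ran from -0.28 to 0.17.

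The Id inhibitors, which are induced by bone morphogenetic proteins (BMP) in many tissues, likewise had 0 of 4 members called. *Id3* was 269 ± 33.7 and 257 ± 47.6, *Id1* 116 ± 15.9 and 119 ± 16.8, *Id2* 131 ± 8.69 and 130 ± 10.1, and *Id4* 116 ± 12.8 and 102 ± 21.3, in control and *Osr2-Cre;Ezh2fl/fl* molars (SD, n = 4 each). Their 95% intervals lay between -0.53 and 0.32. Of the 20 BMP pathway genes in the table, 19 passed the filter, 2 rose and 0 fell, beside 1.56% and 0.512% of all genes tested. At an unadjusted p under 0.05, 6 were higher and 0 lower (8.27% and 4.87% of all genes), and 5 of the 20 had groups apart, all higher (5.55% of all genes in the table). The ligand gene *Bmp6* went from 3.02 ± 0.813 to 9.60 ± 2.59 (log2 fold change 1.38, SE 0.21, adjusted p = 0.0106, and 0.0199 with the replicate block). *Bmp5* went from 13.2 ± 3.99 to 30.0 ± 8.75 (log2 fold change 1.12, SE 0.23, adjusted p = 0.0410). With the block the adjusted p of *Bmp5* was 0.0631, and with each library left out it ranged from 0.0221 to 0.151. The median log2 fold change of the 19 genes was 0.04.

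Of the 7 Hes and Hey repressors, 5 were tested and 0 passed the adjusted threshold, with log2 fold changes from -0.32 to 0.06. *Hes1*, the most abundant Hes gene per kilobase, was 38.0, 35.0, 39.9 and 42.7 in control and 39.2, 26.7, 27.9 and 31.3 in *Osr2-Cre;Ezh2fl/fl* libraries. Only *Osr2-Cre;Ezh2fl/fl* library 1 reached the control range. Its log2 fold change was -0.32 (SE 0.12, adjusted p = 0.277), and 0.396 was the adjusted p with the replicate block. With each library left out the fold change ranged from -0.43 to -0.25 and the adjusted p from 0.0475 to 0.599, under 0.05 only without *Osr2-Cre;Ezh2fl/fl* library 1. In the 5 libraries lowest in enamel transcripts it was -0.18 with an adjusted p of 0.986. *Hey1* (205 ± 41.4 and 181 ± 18.3), *Heyl* (90.8 ± 16.6 and 94.7 ± 15.3), *Hey2* (4.24 ± 0.569 and 3.81 ± 0.886) and *Hes6* (19.8 ± 1.33 and 20.1 ± 2.51) had 95% intervals that included 0 (SD, n = 4 each).

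*Hes5*, a Notch target of neural and glial progenitors, was among the 8 members below the filter. It had 11, 17, 15 and 20 estimated reads in control and 5, 3, 10 and 8 in *Osr2-Cre;Ezh2fl/fl* libraries. Every *Osr2-Cre;Ezh2fl/fl* library was below every control library, with mean values of 0.259 ± 0.0470 and 0.113 ± 0.0420 (SD, n = 4 each). Without the filter its adjusted p over all 20926 genes was 0.130. *Hes5* overlaps *Gm20421* on the opposite strand.

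Notch pathway genes were counted beside these targets. Of 17 in the table, 16 passed the filter, 0 rose and 1 fell (1.56% and 0.512% of all genes tested). *Notch1* was 101, 104, 105 and 108 in control and 75.5, 89.7, 77.5 and 73.7 in *Osr2-Cre;Ezh2fl/fl* libraries, so that the groups were apart. Its log2 fold change was -0.40 (SE 0.07, adjusted p = 0.0241), with an adjusted p of 0.139 with the replicate block and of 0.0140 to 0.102 with each library left out. Another 3 genes of the list were lower at an unadjusted p under 0.05 only, a threshold that 4.87% of all genes tested passed in that direction. The median of the 16 genes was -0.14. Of the 17 in the table, 1 had groups apart and higher and 2 had groups apart and lower (5.55% and 2.65% of all genes in the table). Endothelial markers, from cells in which Notch and Hey genes are also active, had a median log2 fold change of -0.17 over 10 genes with 0 called. At an unadjusted p under 0.05, 4 of the 10 were lower and 0 higher (4.87% and 8.27% of all genes tested), 2 had groups apart and lower (2.65% of all genes in the table), and the list had summed values of 444 to 506 in control and 405 to 455 in *Osr2-Cre;Ezh2fl/fl* libraries. Schwann cell and glial markers had 6 of 10 genes tested, 0 higher and 1 lower (1.56% and 0.512% of all genes tested), *Erbb3* (19.9 ± 1.31 and 14.6 ± 1.15, adjusted p = 0.0388, and 0.236 with the block), with summed values of 225 to 318 and 293 to 346. The part of these cells in the values of *Hes1*, *Hes5* and *Notch1* was not tested.

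*Bhlha15*, which encodes a factor of secretory cells, was near the filter. Its values were 1.11, 1.45, 1.15 and 1.12 in control and 0.891, 1.02, 0.736 and 0.813 in *Osr2-Cre;Ezh2fl/fl* libraries. The groups were apart, yet the log2 fold change of -0.24 (SE 0.10) had an adjusted p of 0.304.

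*Bhlhe40* and *Bhlhe41*, repressors that act in the circadian clock and the response to low oxygen, did not pass the test. *Bhlhe40* had 17.5 ± 3.88 and 13.4 ± 3.69, a log2 fold change of -0.37 with a 95% interval from -0.84 to 0.10, and *Bhlhe41* had 2.98 ± 0.821 and 2.73 ± 0.266 (SD, n = 4 each). All 13 circadian clock genes of the list passed the filter, 0 were called in either direction, and 1 was higher and 1 lower at an unadjusted p under 0.05 (8.27% and 4.87% of all genes tested), with a median log2 fold change of 0.04.

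*Tal1* and *Lyl1*, which act together in blood and endothelial precursors, were 2.95 ± 0.169 and 2.76 ± 0.413, and 3.15 ± 0.202 and 3.49 ± 0.476, in control and *Osr2-Cre;Ezh2fl/fl* molars (SD, n = 4 each). Their adjusted p-values were 0.865 and 0.778. *Lyl1* overlaps the far more abundant *Nfix* on the opposite strand. Of 12 blood cell markers, 10 were tested and 0 were called, with summed values of 330.2 to 581 in control and 402 to 800.1 in *Osr2-Cre;Ezh2fl/fl* libraries.

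The remaining members below the filter belong mostly to the mesoderm and tendon classes. *Scx*, a tendon factor, had means of 0.318 ± 0.122 and 0.315 ± 0.0539, *Msc* 0.303 ± 0.153 and 0.288 ± 0.102, *Mesp2*, a segmentation factor, 0.368 ± 0.167 and 0.308 ± 0.0619, *Tcf15* 0.561 ± 0.120 and 0.784 ± 0.320, and *Tcf23* 0.118 ± 0.0282 and 0.156 ± 0.0628, in control and *Osr2-Cre;Ezh2fl/fl* molars (SD, n = 4 each). *Hes7* had 0.649 ± 0.0567 and 0.791 ± 0.125. With *Bhlhe22*, these 7 genes had overlapping groups, ratios of means between 0.836 and 1.42, and an adjusted p of 0.582 or more without the filter. They rest on 4 to 64 estimated reads per library. *Scx* overlaps *Bop1* on the opposite strand, which had a mean value of 34.6 in control, and without strand the reads of these genes cannot be told apart. The myogenic members were not analysed here. Of 13 skeletal muscle markers in the table, 7 were tested and 0 called, with summed values of 16.2 to 70.9 in control, the highest in library 4, and 9.99 to 22.7 in *Osr2-Cre;Ezh2fl/fl* libraries.

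The bHLH genes of the mouse that were not on the list, such as the Myc, Mxd, hypoxia and clock factors, gave a comparison within the wider family. Of 46 in the table, 38 were tested, 2 rose and 0 fell at the adjusted threshold (1.56% and 0.512% of all genes tested). At an unadjusted p under 0.05, 7 were higher and 3 lower (8.27% and 4.87%). The groups were apart in 6 of the 46 with *Osr2-Cre;Ezh2fl/fl* above and in 1 with it below (5.55% and 2.65% of all genes in the table). *Tcfl5* was 1.57, 2.15, 1.43 and 1.601 in control and 3.94, 3.97, 3.02 and 4.61 in *Osr2-Cre;Ezh2fl/fl* libraries (log2 fold change 0.86, SE 0.13, adjusted p = 0.0101). *Hif3a*, of the hypoxia-inducible factors, was 6.86, 5.89, 5.98 and 4.76 in control and 13.7, 15.5, 9.65 and 10.1 in *Osr2-Cre;Ezh2fl/fl* libraries (log2 fold change 0.93, SE 0.16, adjusted p = 0.0193). With the replicate block their adjusted p-values were 0.0539 and 0.0517, and *Hif3a* lost its call without control library 2, 3 or 4, with an adjusted p of up to 0.0698. Both genes had values over 1 in every control library, unlike *Hand2*, *Tcf24* and *Nhlh2*. The median log2 fold change of the 38 genes was 0.00.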

How the data were processed

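RNA of postnatal day 3 molar mesenchyme was sequenced in single-end runs of 75 cycles, with 4 control and 4 *Osr2-Cre;Ezh2fl/fl* libraries grouped by their labels. The values deposited by the authors are a normalized signal per gene, 1 column per library, scaled to a shared 75th percentile. They are never 0, and the smallest value of each library was taken as 1 read added before scaling, so ratios of low genes are understated. Reads are estimates from that step: 61.2% of low values were whole multiples of it within 0.01. The study's methods name TopHat and RPKM, whereas the submitters' processing notes list CASAVA 1.8.2, STAR 2.5.3a, Partek and mm10; no length factor was found in the values. There were 0 columns of other samples.

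log2(value + 1) was fitted with limma 3.58.1 (R 4.3.3, with trend), and p-values were adjusted by Benjamini-Hochberg over all genes tested. Python 3.11.15, pandas 2.3.3, numpy 2.4.6 and matplotlib 3.10.9 were used for the rest. On simulated data for this comparison (14907 genes, 200 changed) 98% of changed genes were recovered. What share of differences would be found in the real libraries, with their spread and their unequal enamel transcripts, was not tested. Lengths and overlaps came from GENCODE release M21 and promoters from RefSeq. Between libraries of the same replicate number the correlations of deviations were -0.34, -0.08, 0.22 and -0.43. Such values cannot decide whether the libraries were paired. The study's methods speak of pairs of samples in sequencing, and the labels do not say how libraries were matched.

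The members, gene lists and enamel covariate were chosen with earlier results of these data known. Members with an adjusted p under 0.05, or with groups apart, are given with full values, the others by role, and listed genes that are no members are named if they passed the adjusted threshold. Depth was 48.3 to 68.8 M estimated reads.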

Additional observations from a re-analysis of the deposited data

Results flagged for a closer look

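In 8 of 66 groups of 4 libraries (*Ezh2* and the 32 members in both genotypes) a single library stood apart from the other 3 by Dixon's test, where chance alone marks about 1 in 20 groups, or 3.3 here. *Ezh2* was 55.0 in control library 1 and 38.3 to 39.6 in the other controls. In control library 2, *Twist1* was 23.3 (others 21.2 to 21.4), *Hes7* was 0.734 (others 0.612 to 0.627) and *Bhlha15* was 1.45 (others 1.11 to 1.15). *Tcf15* was 0.382 in control library 1, below the others at 0.602 to 0.642, and *Id4* was 135 in control library 4, above the others at 107 to 111. *Osr2-Cre;Ezh2fl/fl* library 3, the highest of its group in enamel transcripts, was lowest for *Tcf3* at 138 (others 153 to 156) and for *Id2* at 114 (others 133 to 137).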

How the results depend on the processing

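*Hand2* and *Tcf24* kept their direction and call in all 18 alternatives in which they were tested, and *Nhlh2* in 17 of 18, the exception being the 5 libraries lowest in enamel transcripts (chosen after seeing the data). The size of their change depended on the number added before the log2. With 5 and 0.1 in place of 1, *Hand2* had log2 fold changes of 1.10 and 4.57, *Tcf24* 0.98 and 3.43, and *Nhlh2* 0.79 and 3.51. A filter at a value of 10 leaves those 3 genes untested, so 0 members were called higher there. Array weights gave 8 members higher and 7 lower (14.6% and 12.6% of all genes), and an unadjusted p gave 6 and 2. The 8 higher with array weights were *Hand2*, *Tcf24*, *Nhlh2*, *Twist1*, *Twist2*, *Atoh8*, *Sim2* and *Lyl1*. The 7 lower were *Bhlhe40* (-0.64), *Id4* (-0.31), *Hey2* (-0.31), *Bhlha15* (-0.30), *Hes1* (-0.29), *Tal1* (-0.26) and *Tcf4* (-0.21). Their limma adjusted p-values were 0.00471 to 0.0195. With each library left out, 3 to 4 members were higher and 0 to 1 lower, the added ones being *Twist2* without *Osr2-Cre;Ezh2fl/fl* library 3 and *Hes1* without library 1. *Ezh2* had -0.64 with the enamel covariate (adjusted p = 0.0274 by limma), -0.19 with array weights (adjusted p = 0.135) and -0.53 to -0.32 with each library left out. Of the other bHLH genes, 0 were called at a filter of 10, 0 with the replicate block, 0 in the 5 libraries, 15 with array weights, and 1 to 3 with each library left out. In the 5 libraries 8 of all 14854 genes tested were called higher and 0 lower. With the replicate block 0.431% of all genes tested were called higher and 0.0606% lower. The replicate block kept 3 members higher and 0 lower; it lost the calls of *Tcfl5*, *Hif3a*, *Notch1*, *Bmp5*, *Erbb3*, *Prrx2* and *Gm29100*, whose values stand in the text. In the 5 libraries these genes, *Bmp6* and *Lhx8* had adjusted p-values of 0.170 to 0.563, in a fit that called only 8 of all genes tested. In the labels the replicates share only a number, and whether they were paired is not known.

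Log2 fold changes of uncalled members turned sign. With array weights *Tcf3* had 0.039, *Id2* 0.044, *Id3* 0.0049, *Bhlhe41* 0.0098 and *Sim2* 0.61, which passed the threshold (adjusted p = 0.0385). With the enamel covariate *Id1* had -0.12, *Hey2* 0.0097, *Heyl* -0.10 and *Bhlhe41* 0.037. In the 5 libraries *Tcf3* had 0.015, *Heyl* -0.075 and *Bhlhe41* 0.060. *Hes6* had -0.0064 with median-of-ratios scaling and -0.0066 with quantile normalization. With each library left out, the range was -0.031 to 0.025 for *Tcf3*, -0.019 to 0.14 for *Id1*, -0.047 to 0.037 for *Id2*, -0.17 to 0.057 for *Id3*, -0.060 to 0.072 for *Hes6*, -0.035 to 0.16 for *Heyl*, -0.18 to 0.053 for *Bhlhe41* and -0.30 to 0.17 for *Sim2*. The cause was not tested. The 8 members below the filter rest on 3 to 64 estimated reads per library, and what difference could be detected there was not tested.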
